A study of Mus musculus with 4 samples.

Results

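The oxidative phosphorylation genes described here are 30 nuclear genes for subunits of the mitochondrial respiratory chain and ATP synthase. They were taken from a list of names, not from measured values, and each was matched to array probes by accession. All 30 were found among 16862 named genes usable on all 4 arrays. They comprise 10 subunits of complex I, 3 of complex II, 4 of complex III, 7 of complex IV and 5 of complex V, with cytochrome c as the remaining member. The study profiled mouse skin by microarray, 48 h after photodynamic treatment, which makes reactive oxygen species in the tissue. Tail treated skin received methyl aminolevulinate cream, 2.5 h of darkness and 10 J/cm2 of red light at 636 nm, and tail control skin received no treatment. Back treated skin received the same cream and dark incubation and 2.5 J/cm2 at 636 nm after the animals had been shaved, and back control skin received no treatment. Whether the control animals were also shaved is not stated, and strain and age are not given. Each group was 1 one-colour array with 3 animals by design, and pooling of those animals is not stated, so the values compare 4 arrays, without replicates and without a test.

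Oxidative phosphorylation is the process by which mitochondria turn the electrons of NADH and succinate into ATP. Complex I takes electrons from NADH and complex II takes them from succinate. Both pass them to coenzyme Q, then complex III hands them to cytochrome c, and complex IV gives them to oxygen. Complexes I, III and IV pump protons, and complex V uses the proton gradient to make ATP. The chain is itself a source of superoxide, and the heme intermediate protoporphyrin IX that sensitises treated skin to light is made in the same organelle.

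Promoter sequences were available for 22 of the 30 members in the RefSeq table of build GRCm38.p6, as 300 bases that run from 250 bases before the transcript start. Cycs, Sdha and Sdhb are shown because the differences between the control skins below turn on cytochrome c and complex II. In that build the promoter window of Cycs lies on the minus strand at chr6:50566520-50566819, that of Sdha on the minus strand at chr13:74350191-74350490 and that of Sdhb on the plus strand at chr4:140961021-140961320. Capitals mark the NRF1 core CGCANGCG in Cycs and Sdha and the ETS core CCGGAAG in Sdhb, as read 5′ to 3′ on the gene's strand.
Cycs: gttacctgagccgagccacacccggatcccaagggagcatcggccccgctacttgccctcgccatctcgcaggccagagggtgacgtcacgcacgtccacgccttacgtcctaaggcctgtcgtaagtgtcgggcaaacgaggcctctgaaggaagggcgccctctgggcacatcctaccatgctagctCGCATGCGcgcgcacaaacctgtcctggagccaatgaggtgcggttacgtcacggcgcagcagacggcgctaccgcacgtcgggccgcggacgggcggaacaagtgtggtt
Sdha: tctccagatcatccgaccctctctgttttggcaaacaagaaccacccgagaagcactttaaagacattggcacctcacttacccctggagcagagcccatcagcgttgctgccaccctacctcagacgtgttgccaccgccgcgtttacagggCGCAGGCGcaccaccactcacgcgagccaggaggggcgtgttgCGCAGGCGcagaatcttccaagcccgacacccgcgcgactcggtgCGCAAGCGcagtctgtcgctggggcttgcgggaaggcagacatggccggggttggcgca
Sdhb: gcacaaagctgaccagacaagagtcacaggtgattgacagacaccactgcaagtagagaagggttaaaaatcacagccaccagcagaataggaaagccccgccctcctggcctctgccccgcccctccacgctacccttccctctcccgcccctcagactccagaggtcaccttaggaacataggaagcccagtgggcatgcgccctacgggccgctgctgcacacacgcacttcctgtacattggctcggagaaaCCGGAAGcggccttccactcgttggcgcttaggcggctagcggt
The NRF1 core begins 61 bases before the start of Cycs, and the Sdha window holds 3 such cores. Counted on both strands, this core lay in 26.1% of the members' 23 promoters (1 member has more than 1 start) and in 8.21% of all 32851 promoters of the same length. Those are 6 promoters but 5 of 22 genes, since both overlapping windows of Atp5c1 count. The ETS core CCGGAAG lay in 13% of the members' promoters (3) against 8.86% of all, and the YY1 motif AANATGGCG in 8.7% (2) against 2.38%. The cyclic AMP response element TGACGTCA lay in 8.7% (2 promoters) against 1.79%, and CCAAT in 39.1% against 37.4%. The estrogen-related receptor motif AAGGTCA lay in 0% of the members' promoters and 4.72% of all promoters. These are matches of letters in a window and say nothing about binding.

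The arrays differed widely in brightness. At the 75th percentile the processed signal reached 909 on tail treated, 7261 on tail control, 1204 on back treated and 1860 on back control, and all levels below are multiples of that percentile. The detector stops at 65525, so a saturated spot has no higher reading however much RNA was present. Keratinocyte markers checked the tissue: 6 of 6 basal and 5 of 5 suprabasal markers on the array were well above background in all 4 groups. Their levels were not even across groups: of 3 basal markers with a value, 2 were 2-fold lower in treated tail and 2 were 2-fold higher in treated back, with medians of -1.33 and 1.12 on the log2 scale, and the suprabasal marker Ivl differed by -1.98 in the back. The part of these markers in the members' values was not tested. The extraction protocol names tail epidermis where the labels name tail skin. Array position on the slide and group cannot be told apart.

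The members were bright genes, each above the 75th percentile on every array, and on the tail control array most reached the ceiling. The lowest reading was 1.76 times the percentile, for Ndufs8 in tail control. Of the 30 members, 5 were saturated on tail treated, 20 on tail control, 5 on back treated and 7 on back control. Saturated members on tail control read between 8.32 and 10.0 times the percentile whatever their true level. The 5 members saturated on all arrays were Ndufa4, a small subunit now counted with complex IV, the complex IV subunits Cox5a and Cox6c, the ATP synthase central stalk subunit Atp5c1 and the peripheral stalk subunit Atp5o. Nothing can be said of how these 5 differed. A further 2, the Rieske iron-sulfur protein Uqcrfs1 and the ATP synthase stalk subunit Atp5f1, were saturated on both control arrays. Only 10 members were unsaturated on all 4 arrays: Ndufa2, Ndufb5, Ndufs1, Ndufs8, Sdha, Sdhb, Sdhc, Uqcrb, Cycs and Atp5b.

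**Figure D1:**
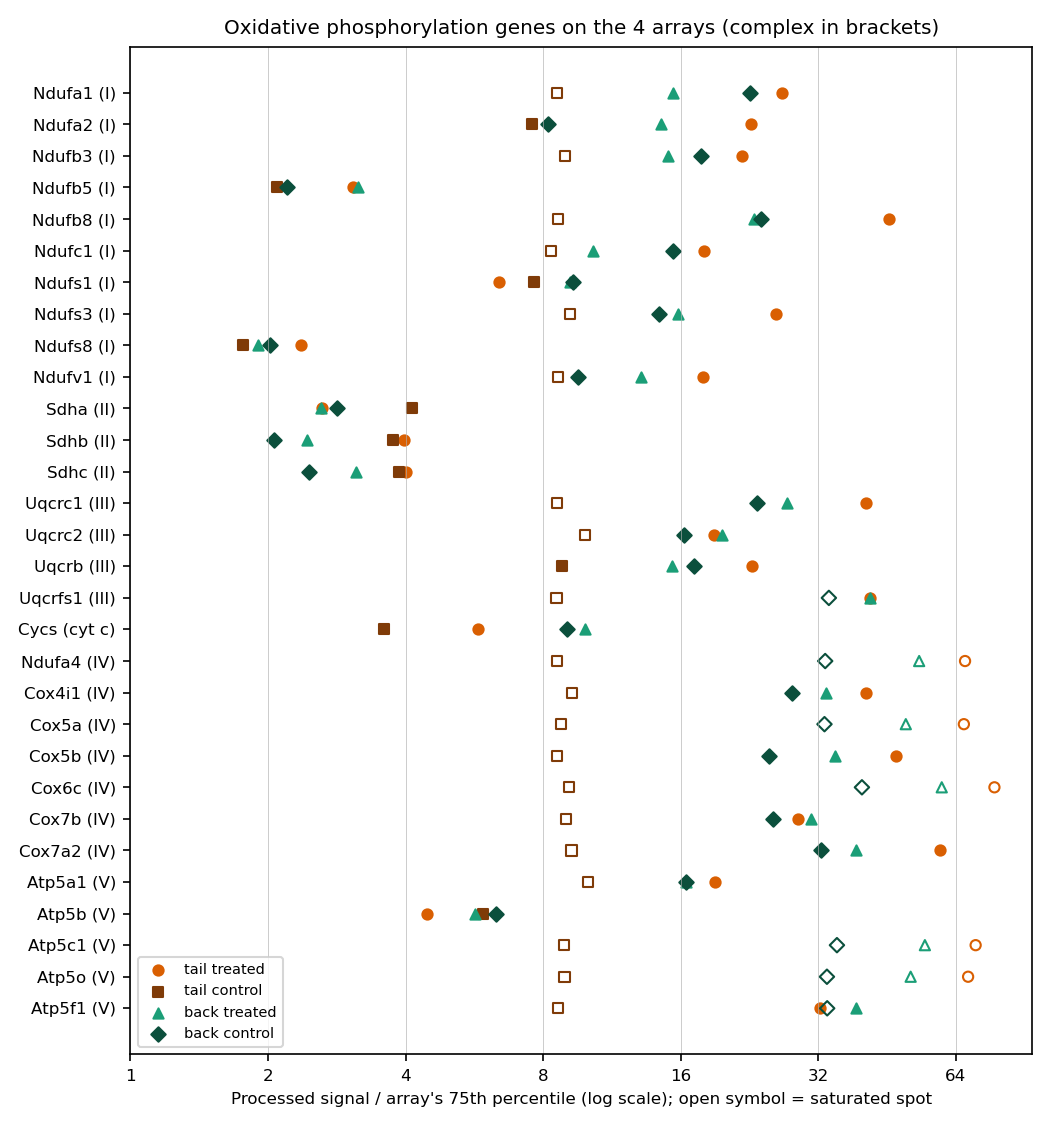
Level of each of the 30 members on the 4 arrays, as processed signal divided by the array's 75th percentile on a log2 axis, with the complex in brackets. Open symbols are saturated spots; on tail control 20 members are open and stand between 8.32 and 10.0, which is the detector's ceiling on that array.

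In back skin, no member with a value was 2-fold higher or lower in treated skin than in control skin. Of 30 members, 23 were measured on both arrays, and among all 13605 genes with a value 13.5% were higher and 13% lower by 2-fold or more. The members' differences ran from -0.58 to 0.82 on the log2 scale, with a median of 0.14 beside -0.01 over all genes. There were 14 above 0 and 9 below. The scanner error of one such difference was about 0.20, which covers spots and not animals. The median was -0.25 under spike-in scaling, beside -0.46 over all genes, so the sign of many small differences rests on the scaling. In the same pair of arrays the summed level of 17 skeletal muscle markers was 5.22 in back treated and 2.23 in back control, but without Tnni2 it was 1.89 in back treated and 1.98 in back control. Of 7 neutrophil markers, S100a9 was saturated on both arrays and S100a8 on back treated only. S100a8 read at least 56.2 in back treated and 8.66 in back control. The other 5 summed to 0.867 in back treated and 0.126 in back control. Without Retnlg the sum was 0.331 in back treated and 0.114 in back control, most of the former being Csf3r at 0.258. Cxcr2 read 0.0471 in back treated and 0.0813 in back control, and Mpo 0.0234 and 0.0261. Elane was not well above background in either group. Fewer cells of a type and less RNA per cell cannot be told apart in such samples, and the part of these markers in the members' values was not tested.

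Complex I held both ends of the range in the back. Ndufa2, an accessory subunit of the NADH-oxidising arm, read 14.5 in back treated and 8.19 in back control, a log2 difference of 0.82. Ndufa1, an accessory subunit of the membrane arm, read 15.4 in back treated and 22.7 in back control, a difference of -0.56. Ndufc1, another membrane-arm accessory subunit, read 10.3 in back treated and 15.4 in back control, a difference of -0.58. Subunits of one complex thus lay on opposite sides of 0, and these 3 kept their sign under every alternative that gave a value, at 0.36 to 0.96 for Ndufa2, -1.02 to -0.18 for Ndufa1 and -1.04 to -0.24 for Ndufc1. Second probes of Ndufa1 and Ndufc1 were saturated on back control and gave upper limits of 0.04 and 0.23, which do not settle the sign. Ndufb5, an accessory subunit of the membrane arm, differed by 0.52, and Ndufv1, the flavoprotein that receives electrons from NADH, by 0.46. Ndufb3 and Ndufb8, also of the membrane arm, differed by -0.24 and -0.05. The core subunits Ndufs1, Ndufs3 and Ndufs8 lay close to 0, at -0.02, 0.14 and -0.09. The complex I median over 10 members was -0.03.

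In complex IV all 4 measured members lay above 0 in the back. Cox5b, a zinc-binding subunit, read 34.9 in back treated and 24.9 in back control, a difference of 0.48. Cox4i1, a regulatory subunit, read 33.3 in back treated and 28.0 in back control, a difference of 0.25. Cox7b and Cox7a2, small subunits of the complex, differed by 0.27 and 0.25. These 4 values are at or little above the scanner error apart from Cox5b, and 3 of them turned negative under spike-in scaling, where the complex IV median was -0.20. The Cox7a2 spot on back control stood at 97.8% of the ceiling, and a second Cox7a2 probe gave 0.03.

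The measured members of the other complexes stayed within 0.34 of 0 in the back. In complex II, the flavoprotein Sdha differed by -0.11, the iron-sulfur subunit Sdhb by 0.24 and the membrane anchor Sdhc by 0.34. In complex III, the core proteins Uqcrc1 and Uqcrc2 differed by 0.22 and 0.27 and the quinone-site subunit Uqcrb by -0.16. Cytochrome c, which carries electrons between complexes III and IV and also takes part in apoptosis once released, read 9.87 in back treated and 9.01 in back control, a difference of 0.13. In ATP synthase, the catalytic-head subunits Atp5a1 and Atp5b differed by 0.00 and -0.15. Probes of one gene did not always give one value here. A second Sdha probe had the other sign, at 0.29. The other Cycs probes kept the sign but not the size, at 0.72 and 0.05. Uqcrfs1 and Atp5f1, saturated on back control but not on back treated, had upper limits of 0.30 and 0.21, and how far below these limits they lay is not known.

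**Figure D2:**
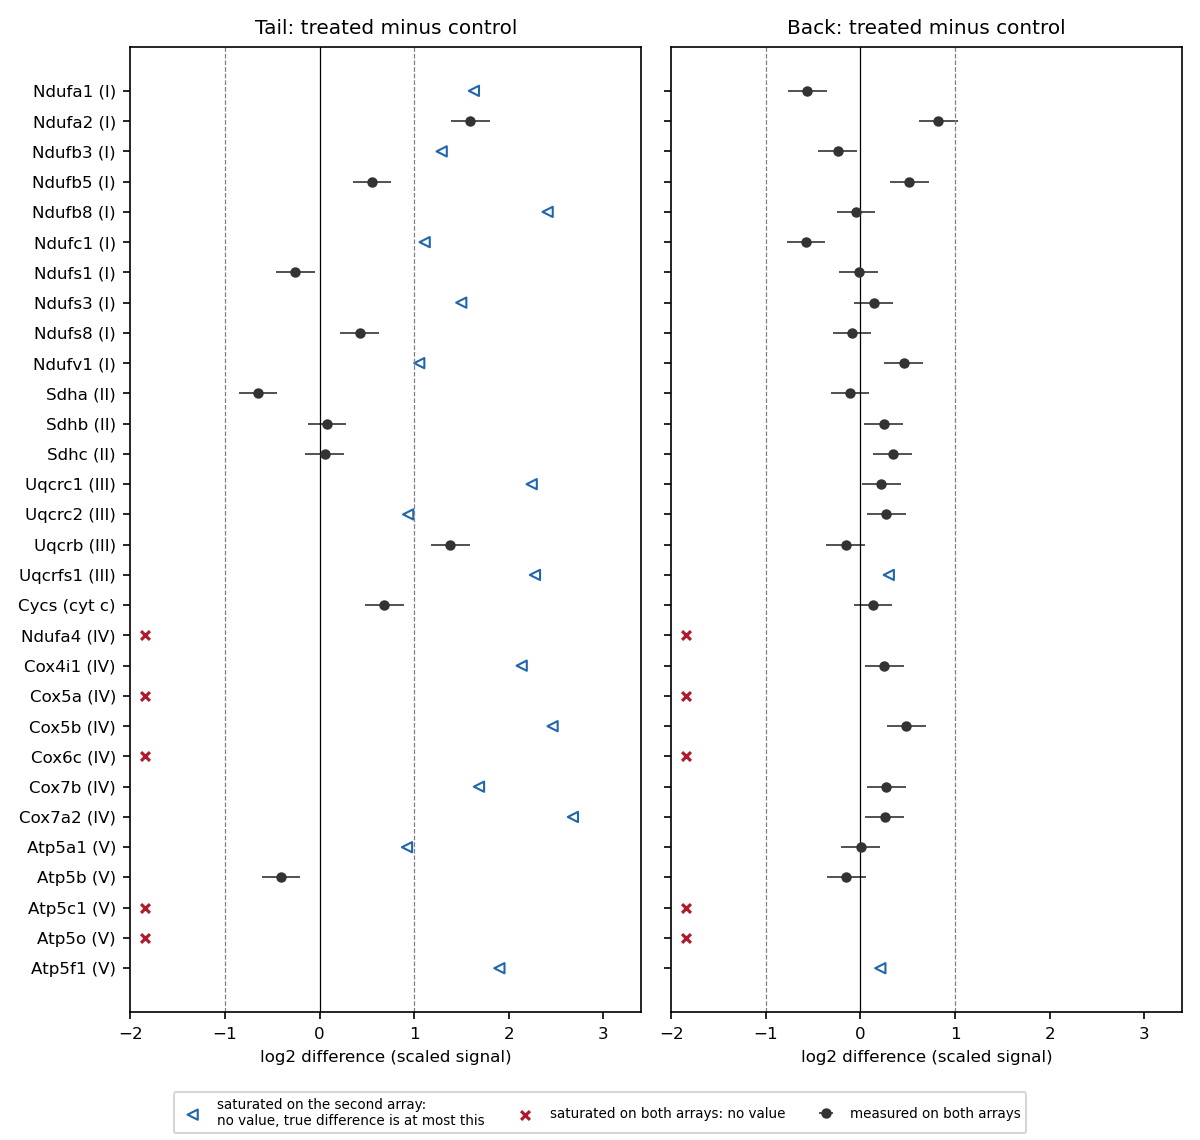
Treated minus control for each member in tail (left) and back (right), as log2 differences of scaled signal; bars are the scanner error, dashed lines mark 2-fold. In the back all 23 filled points lie inside the 2-fold lines, while in the tail only 10 members have a filled point and 15 have an open triangle, an upper limit; under cyclic loess no tail member is past 2-fold higher.

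In tail skin, 10 of the 30 members could be compared, and 2 of them were 2-fold higher in treated skin. Both calls were lost under normexp background correction, quantile normalization and cyclic loess, and both turned negative under spike-in scaling, which moved the median of all genes to -1.67. Over all 13374 genes with a value, 26.4% were higher and 6.66% lower by 2-fold or more. The members' median was 0.25 on the log2 scale beside 0.31 over all genes. The 10 are not a fair sample of the 30, since a member had to lie under the ceiling of the brightest array to be among them.

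Of the measured members, those above 2-fold in the tail were the closest to the ceiling on the control array, and the part of the ceiling was not tested. Ndufa2 read 22.8 in tail treated and 7.55 in tail control, a difference of 1.60. Uqcrb read 23.0 in tail treated and 8.82 in tail control, a difference of 1.38. Their raw spots on tail control stood at 87.8% and 91.0% of the ceiling, above the other 8 measured members. Next were Ndufs1 at 79.6% and Atp5b at 64.3%, which differed by -0.26 and -0.41. With both arrays' geometric mean signal between 20000 and 50000, as for Ndufa2 and Uqcrb, the median difference of 524 genes was 0.65, against 0.16 for 3145 genes between 5000 and 20000. Under cyclic loess, which removes differences that go with brightness, Ndufa2 was at 0.63 and Uqcrb at 0.31. Under spike-in scaling they were at -0.47 and -0.69.

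**Figure D3:**
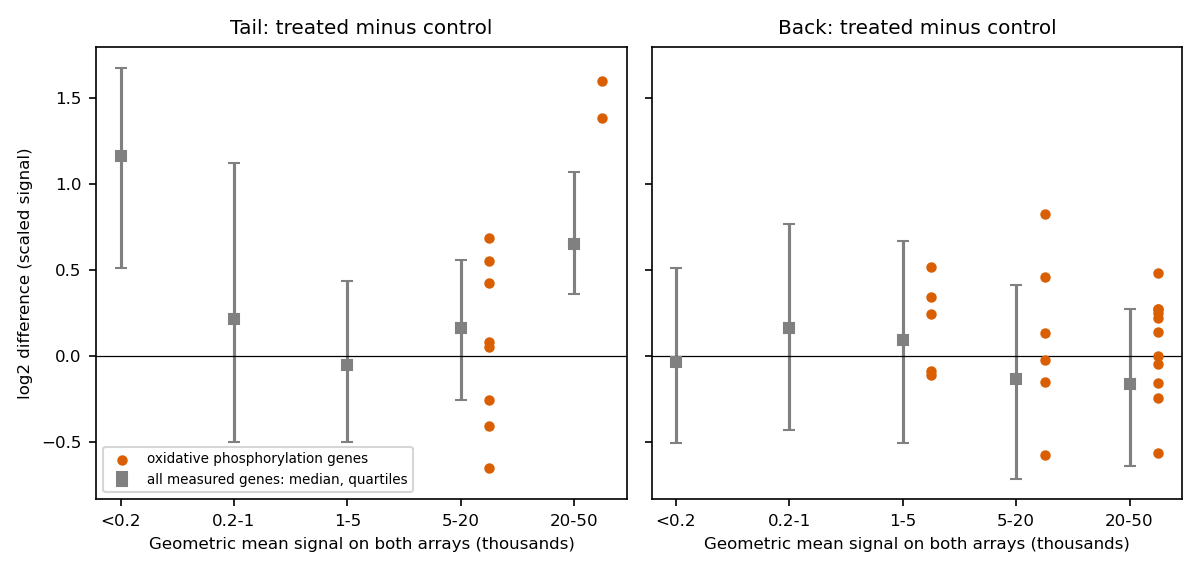
Treated minus control (log2) against the geometric mean of the processed signal on both arrays, for all measured genes (squares are medians, bars the quartiles) and for the members (circles), in bins holding at least 524 genes; 1 back member above 50000 is not shown. In the tail the 2 highest circles lie in the brightest bin, where the median of all genes is 0.65; in the back the bin medians run from -0.16 to 0.16.

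The remaining 8 measured members of the tail lay within 2-fold. Cycs read 5.76 in tail treated and 3.59 in tail control, a difference of 0.68, and a second probe gave 0.53. After cyclic loess the Cycs difference was -0.01. Ndufb5 differed by 0.55 and Ndufs8 by 0.42. In complex II, Sdha read 2.63 in tail treated and 4.13 in tail control, a difference of -0.65, while Sdhb differed by 0.08 and Sdhc by 0.05. Sdhb and Sdhc were negative under normexp, quantile normalization, cyclic loess and spike-in scaling, at -0.28 and -0.35 under cyclic loess. A second Sdha probe gave -0.10, so the size for Sdha depends on the probe. Ndufs1, the largest iron-sulfur subunit of complex I, read 6.39 in tail treated and 7.63 in tail control, a difference of -0.26. Atp5b read 4.46 in tail treated and 5.91 in tail control, a difference of -0.41. Sdha, Ndufs1 and Atp5b were negative under every scaling tried, and each passed 2-fold lower under cyclic loess, at -1.01, -1.04 and -1.03.

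The other 20 members gave no tail value, 5 saturated on both arrays and 15 on tail control only. For those 15 the difference as read, from 0.92 to 2.68, is an upper limit under scaling to the 75th percentile. For 2 of them, Uqcrc2 and Atp5a1, it stood under 2-fold, at 0.94 and 0.92. The highest limits belonged to Cox7a2 at 2.68, Cox5b at 2.46 and Ndufb8 at 2.41. None of these limits shows that the gene was higher in treated skin. Markers of other tissues also differed between the tail arrays. The summed level of 17 skeletal muscle markers was 3.41 in tail treated and 1.57 in tail control. Of 15 muscle markers with a value, 12 were 2-fold higher and 1 was 2-fold lower, where 26.4% of all genes were higher. Their median was 1.21 on the log2 scale, beside 1.16 for 3187 genes with a mean signal under 200 on these arrays. For 5 red blood cell markers the sum was 13.2 in tail treated and 0.871 in tail control. For 8 adipocyte markers it was 28.1 in tail treated and 6.06 in tail control, most of both sums being Fabp4. Of 7 neutrophil markers, S100a8 and S100a9 were saturated on tail treated but not on tail control. S100a8 read at least 74.0 in tail treated and 1.65 in tail control, and S100a9 at least 69.9 and 6.87. The other 5 summed to 0.201 in tail treated and 0.106 in tail control. Without Retnlg these summed to 0.158 in tail treated and 0.105 in tail control. The muscle markers Actn3 and Casq1 were not well above background in tail treated, nor Pvalb and Casq1 in tail control. The part of these markers in the members' tail values was not tested.

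Between untreated back skin and untreated tail skin, the differences that kept their direction under every scaling tried were those of cytochrome c and the 3 complex II members. Of 10 members measured on both control arrays, 1 was 2-fold higher in back control and 0 lower, against 27.3% higher and 17% lower over all 13291 genes with a value. Cycs read 9.01 in back control and 3.59 in tail control, a difference of 1.33. With a geometric mean signal between 20000 and 50000, as for Cycs, the median difference of 1241 genes was 0.76 and the upper quartile 1.31. A second Cycs probe gave 1.25, and the difference was positive under every alternative, from 0.51 under spike-in scaling to 1.35. It was under 2-fold under quantile normalization (0.98), cyclic loess (0.66) and spike-in scaling.

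The 3 complex II members had differences below 0 between the control skins, none of them past 2-fold. Sdhb read 2.06 in back control and 3.76 in tail control, a difference of -0.87. Sdhc read 2.46 in back control and 3.87 in tail control, a difference of -0.65. Sdha read 2.83 in back control and 4.13 in tail control, a difference of -0.55, and its second probe gave -0.47. The direction held under every alternative run, with complex II medians from -0.62 under normexp to -1.47 under spike-in scaling, and cyclic loess put Sdhb at -1.22 and Sdhc at -1.05. Sdhd, the other membrane anchor of the complex and not a member, differed by 0.07 and by -0.82 under cyclic loess.

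No other measured member kept its direction under every scaling between the control skins. Complex I stood at 0.28 for Ndufs1, 0.20 for Ndufs8, 0.12 for Ndufa2 and 0.07 for Ndufb5, and Atp5b at 0.09. Uqcrb read 17.1 in back control and 8.82 in tail control, a difference of 0.95, but was at -0.05 under cyclic loess and at -0.30 under quantile normalization. The median of the 10 was 0.10, beside 0.20 over all genes, and turned negative under quantile normalization, cyclic loess and spike-in scaling. A further 13 members were saturated on tail control alone, with upper limits from 0.15 for Ndufv1 to 1.81 for Cox7a2, 6 of them under 2-fold. This comparison and the tail response share the tail control array.

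**Figure D4:**
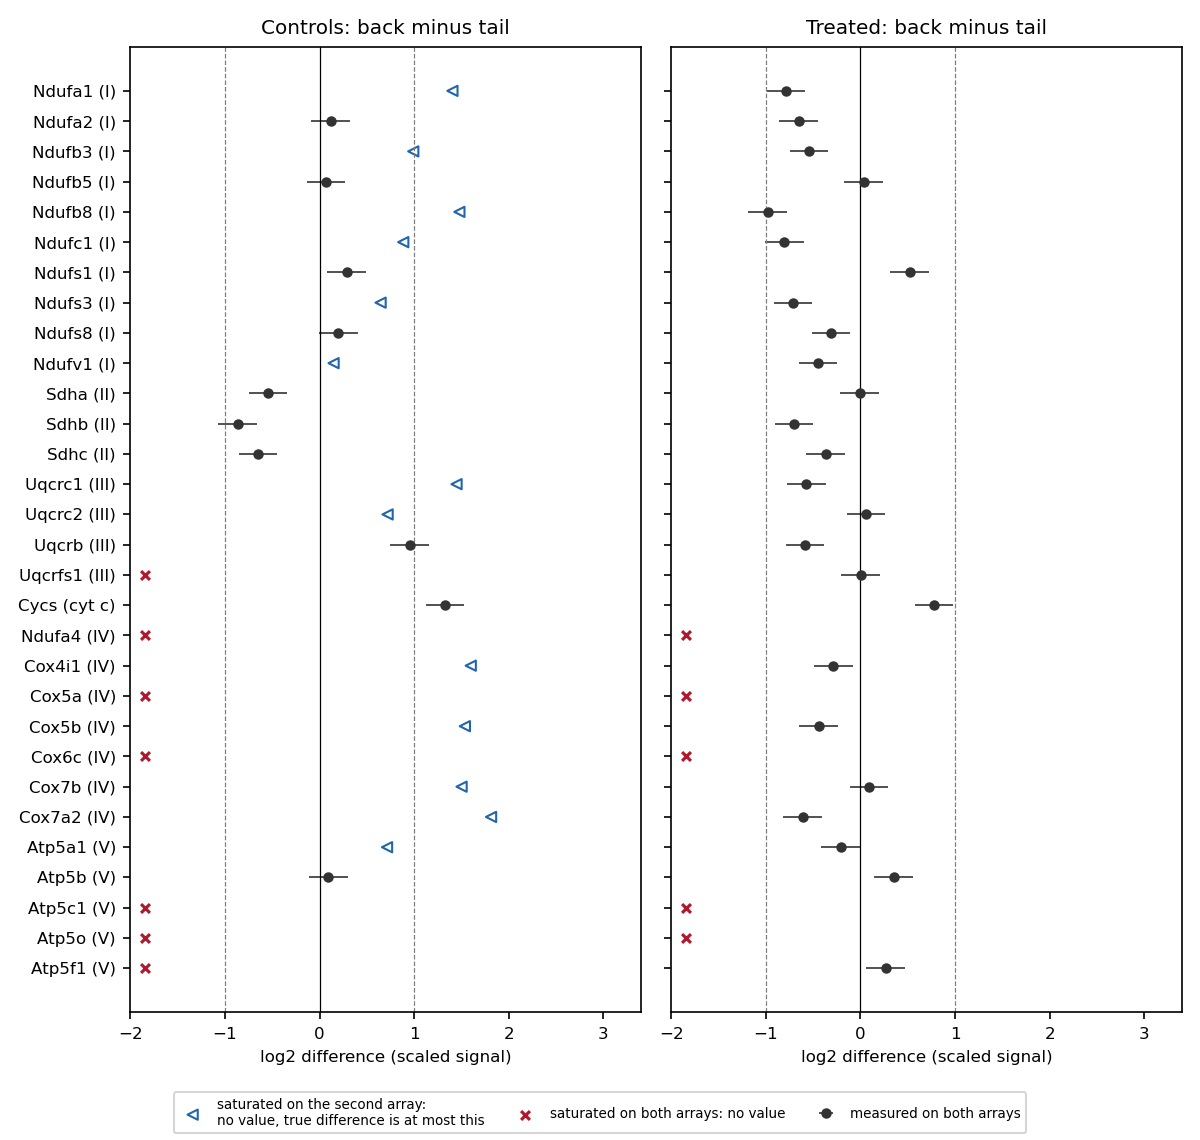
Back minus tail for each member in control skin (left) and treated skin (right), as log2 differences of scaled signal, with scanner error bars and dashed 2-fold lines. Cycs is the highest filled point in both panels, at 1.33 and 0.78, and the complex II points Sdha, Sdhb and Sdhc lie between -0.87 and -0.55 in control skin; triangles are upper limits and crosses have no value.

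The treated skins gave the fullest view, with 25 of 30 members measured on both arrays. This comparison was added after the data had been seen, and light dose and skin site cannot be told apart in it. None of the 25 differed by 2-fold, against 16.2% higher and 20.6% lower in back treated over all 14184 genes with a value. The median was -0.37, beside -0.22 over all genes, and it was 0.17 under normexp and 0.42 under spike-in scaling. There were 8 members above 0 and 17 below.

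Within complex I, 8 of 10 members lay below 0, none past 2-fold, where 58.5% of all genes lay below 0. The complex I median of -0.60 was 0.19 under spike-in scaling. Ndufb8 read 23.2 in back treated and 45.8 in tail treated, a difference of -0.98. Ndufc1 and Ndufa1 differed by -0.80 and -0.79, and their second probes gave -0.70 and -0.80. Ndufs3, a core subunit near the quinone site, read 15.8 in back treated and 25.9 in tail treated, a difference of -0.72. Ndufs1 lay on the other side of 0, reading 9.16 in back treated and 6.39 in tail treated, a difference of 0.52.

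Cytochrome c was again the highest member. Cycs read 9.87 in back treated and 5.76 in tail treated, a difference of 0.78, and its other probes gave 0.77 and 0.54. Atp5b differed by 0.35 and Atp5f1 by 0.27, both of ATP synthase, whereas Atp5a1 differed by -0.21. The iron-sulfur subunit Sdhb differed by -0.70, Sdhc by -0.37 and Sdha by -0.01. Under spike-in scaling Sdhb, Sdhc and Sdha were at 0.09, 0.42 and 0.78. Sdhd, not a member, differed by 0.59. Complex III ran from -0.58 for Uqcrb to 0.06 for Uqcrc2, with Uqcrfs1 at 0.00. Complex IV ran from -0.61 for Cox7a2 to 0.09 for Cox7b.

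The change with treatment could be compared between the skins for the 10 members measured on all 4 arrays. The back difference minus the tail difference had a median of 0.06, with 0 members 2-fold higher and 1 lower. Over 11846 genes the median was -0.20, with 15.3% higher and 28.3% lower. The lower member was Uqcrb at -1.54, from -0.16 in the back and 1.38 in the tail. Ndufa2 stood at -0.77, with 0.82 in the back and 1.60 in the tail. Sdha stood at the other end at 0.54, with -0.11 in the back and -0.65 in the tail. The scanner error of such a difference was 0.29. The values of Uqcrb and Ndufa2 include tail control spots that were near the ceiling, and the part of the ceiling was not tested.

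The other subunits of the respiratory chain had few values past 2-fold in the back. Of 47 other subunits of complexes I to V on the array, 35 had a back value, with a median of 0.03. In treated skin 1 was 2-fold higher and 0 lower, where 13.5% of all genes were higher and 13% lower. That gene was Sdhd, which read 19.8 in back treated and 8.32 in back control, a difference of 1.25 that was 0.79 under spike-in scaling. In the tail 18 had a value, with 4 past 2-fold higher and 0 past 2-fold lower, where 26.4% of all genes were higher, and their median was 0.51 beside 0.31 over all genes. These 4 were Ndufb7 at 1.97, Atp5k at 1.47, Ndufs7 at 1.07 and Cox6b1 at 1.01, and none of them was past 2-fold under cyclic loess, at 0.98, 0.53, 0.27 and 0.78, while under spike-in scaling all 4 were negative, as was the median of all genes. No probe was matched to any of the 13 subunits encoded by mitochondrial DNA.

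Assembly factors, which build the complexes and insert their metals and hemes, were also compared. Of 39 with a back value, 7 were 2-fold higher in treated skin and none 2-fold lower, where 13.5% of all genes were higher and 13% lower; their median was 0.59 beside -0.01 over all genes. The largest were Sco1, a copper chaperone of complex IV, at 1.62, Cox15, which makes heme A, at 1.54, and the complex IV assembly factors Coa3 at 1.36 and Cox20 at 1.35. Sco1 read 2.17 in back treated and 0.705 in back control. The list's median stayed positive under each scaling, down to 0.13 under spike-in scaling, where 2 were higher and 1 lower. In the tail 5 of 36 were 2-fold higher and 0 lower, where 26.4% of all genes were higher, and the median was 0.19 beside 0.31 over all genes, with Timmdc1 at 1.91, Cox20 at 1.77 and Sco1 at 1.68. Under cyclic loess 3 were higher in the tail and the median was 0.08, and under spike-in scaling the tail median was -1.85 beside -1.67 over all genes.

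Genes of the mitochondrial ribosome, which translates the subunits encoded in the organelle, were counted in the same way. In the back 13 of 77 were 2-fold higher in treated skin and none was 2-fold lower, beside the same 13.5% and 13% of all genes, and the median of 0.43 became -0.03 under spike-in scaling. The largest were Mrpl58 at 1.37, Mrps5 at 1.34 and Mrpl12 at 1.25. In the tail 12 of 68 were 2-fold higher, beside 26.4% of all genes, and 0 lower, and the median of 0.41 was 0.03 under cyclic loess and -1.61 under spike-in scaling. Between the control skins, 10 of 37 assembly factors were 2-fold lower in back control and 1 was higher, and 9 of 69 ribosomal genes were lower and 4 higher, where 17% of all genes were lower and 27.3% higher. The lists had medians of -0.51 and -0.28 that were negative under each scaling. Ndufaf7 and Nubpl, both assembly factors of complex I, differed by -2.21 and -2.06.

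**Figure D5:**
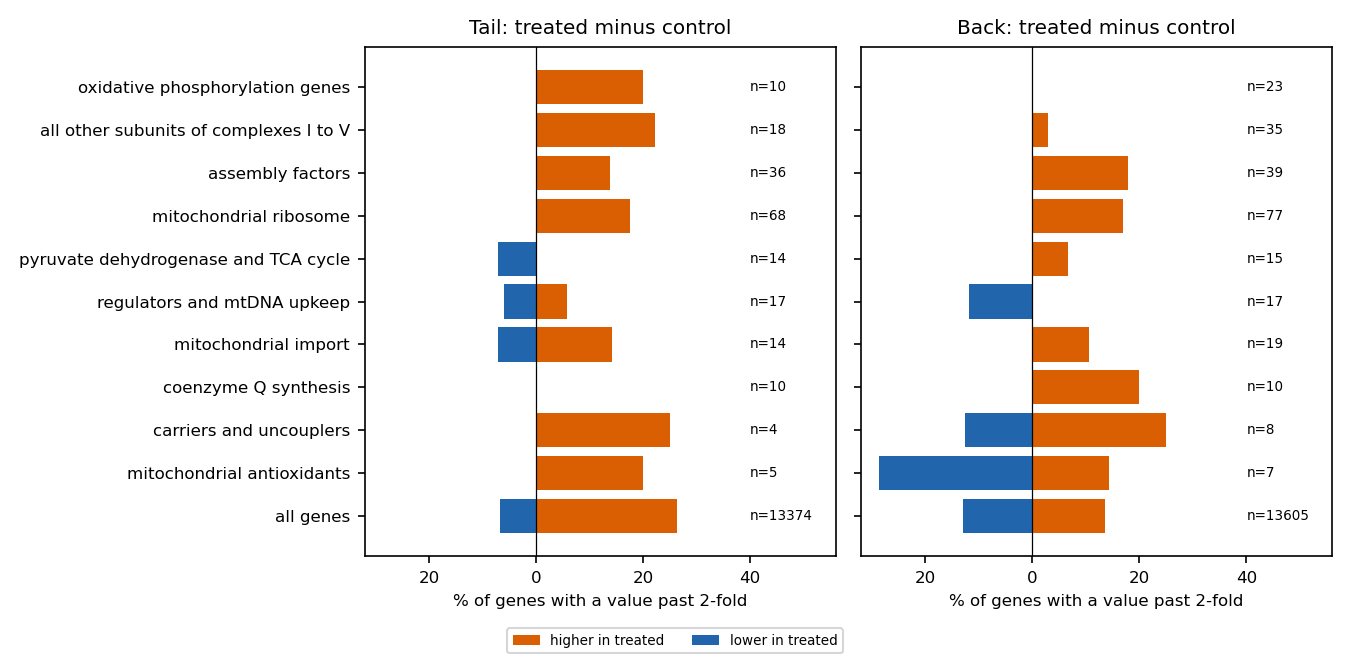
Share of genes with a value that were 2-fold or more higher (right of 0) or lower (left of 0) in treated skin, for the members, 9 related lists and all genes, in tail (left panel) and back (right panel); n is the number with a value. In the back the members show 0 calls among 23 and 7 of 39 assembly factors are higher, beside 13.5% of all genes. Fewer assembly factors are higher in the back under spike-in scaling. The tail shares rest on the scaling, and under spike-in scaling the tail medians of the assembly factors, the mitochondrial ribosome and all genes are negative.

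The enzymes that feed the chain were compared between the treated skins as well. Of 16 genes of pyruvate dehydrogenase and the citric acid cycle with a value there, 3 were 2-fold higher in back treated and 0 lower, where 16.2% of all genes were higher, and the median of 0.69 was positive under each scaling. Pdha1, the catalytic subunit of pyruvate dehydrogenase, read 10.1 in back treated and 2.11 in tail treated, a difference of 2.25. Dld, the shared dehydrogenase subunit, differed by 1.46 and Dlat, the acetyl-transferring core, by 1.08. Pdha1 already differed by 1.53 between the control skins. Between treated and control skin the gene of this list past 2-fold was Suclg2, a succinyl-CoA synthetase subunit, at -1.09 in the tail and 1.24 in the back.

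Regulators of mitochondrial genes had few values past 2-fold between treated and control skin. Among 17 with a value, the treated tail had 1 at 2-fold higher and 1 at 2-fold lower, where 26.4% of all genes were higher and 6.66% lower. The treated back had 0 higher and 2 lower, where 13.5% of all genes were higher and 13% lower. Ppargc1a, the coactivator of mitochondrial biogenesis, read 0.028 in tail treated and 0.0059 in tail control, a difference of 2.26. Its signals were 25.8 in tail treated and 43.1 in tail control, where the lowest signals well above background were 10.3 and 22.3. With a mean signal under 200 on these arrays, 3187 genes had a median difference of 1.16. Between the control skins Ppargc1a was 3.41 higher in back control. Gabpb1, a subunit of an ETS factor that binds promoters of respiratory genes, read 0.303 in tail treated and 0.855 in tail control, a difference of -1.50, and it read 1.05 in back treated and 2.11 in back control, just past 2-fold lower. Polg2, of the mitochondrial DNA polymerase, differed by -1.27 in the back. Ucp1, which uncouples the proton gradient in brown fat, is counted with the carriers and uncouplers below. It read 0.1 in back treated and 1.01 in back control, a difference of -3.34. Brown adipocyte markers went both ways in the back: of 3 with a value, 1 was 2-fold higher and 2 were 2-fold lower. The 4 markers, Ucp1 among them, summed to 37.3 in back treated and 12.6 in back control, most of both sums being Cidea. Without Cidea the sum was 0.261 in back treated and 2.10 in back control.

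The smaller lists are to be read beside the shares of all genes that were 2-fold higher, 13.5% in the back and 26.4% in the tail. Of these lists, coenzyme Q synthesis had 2 of 10 genes higher in the treated back, Pdss1 at 2.12 and Coq7 at 1.13, and 0 of 10 past 2-fold in the treated tail. Of 8 carriers and uncouplers with a back value, 2 were higher, the ATP/ADP carrier Slc25a4 at 1.32 and the outer membrane channel Vdac3 at 1.11, and 1 was lower. Of 7 mitochondrial antioxidant genes in the back, the thioredoxin reductase Txnrd2 was higher at 1.42, and the peroxiredoxin Prdx5 and the glutaredoxin Glrx2 were lower at -1.83 and -1.08. In the tail Prdx3, the main peroxiredoxin of the mitochondrial matrix, was the 1 of 5 that was higher, at 1.17, and stood at -0.90 under spike-in scaling beside -1.67 over all genes. Of the import machinery, 2 of 14 were 2-fold higher in treated tail skin and 1 was lower, and in treated back skin 2 of 19 were higher. Tissue-restricted isoforms of complex IV and cytochrome c had 6 of 8 past 2-fold higher in the treated tail, led by Cox8b at 2.34 and Cox7a1 at 1.74, with a median of 1.51 that was 0.63 under cyclic loess and -0.56 under spike-in scaling. Both are muscle or brown fat forms, at levels of 0.0431 and 0.306 in tail treated and 0.0085 and 0.0914 in tail control. The list also holds forms of other tissues, and its calls were not confined to muscle and brown fat forms. Next in size were Cox4i2, at 0.0282 in tail treated and 0.00866 in tail control, and Cox8c, at 0.0238 and 0.00778. The Cox8b signals were 39.2 in tail treated and 61.8 in tail control, under 200, where 3187 genes had a median tail difference of 1.16. The summed skeletal muscle markers of the same arrays are given above, and their part was not tested. Some of these lists share roles with the members and are not independent.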

How the data were processed

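The members and all gene lists were chosen with earlier results of these data known. Intensity per spot was deposited as background-corrected signal from Agilent Feature Extraction 10.5.1.1, without normalization between arrays, per the file headers, whereas the submitters' processing notes name version 10.7. RNA of 200 ng per sample was labelled with Cy3, per the labels' protocols. The authors also deposited a table of log2 values, which between any pair of arrays equalled the log2 signal ratio up to a constant, to within 0.001, for at least 99.9% of probes. Groups came from the sample titles.

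Spots marked as outliers were left out, repeated spots were averaged, and log2 signal was scaled by subtracting the 75th percentile of the array, taken over 41174 probes other than controls. Accessions paired 24375 probes (59.2%) with 1 of 17016 symbols in a RefSeq table of GRCm38.p6. The headers name build mm8, so no probe positions are given, and the printed promoter windows are those of GRCm38.p6. Each gene was read from its probe unsaturated on the most arrays, then the brightest. A gene saturated or dim on 1 array of a pair gave a bound only where its difference pointed the way the bound runs. A 2-fold difference was called higher or lower. With 1 array per group there is no test, and the number of arrays limits the precision. All 30 members are named, and of other lists up to 4 genes with the largest difference in a comparison. Alternatives were normexp with an offset of 50, quantile normalization, cyclic loess, the median of detected probes, 6 spike-ins, other probe rules, filters and the authors' table. Python 3.11.15, pandas 2.3.3, R 4.3.3 and limma 3.58.1 were used, and the calls were tested on simulated data.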

Additional observations from a re-analysis of the deposited data

Results flagged for a closer look

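One gene of the related lists lay past 2-fold in opposite directions in the skins. Suclg2, a succinyl-CoA synthetase subunit of the citric acid cycle, read 0.937 times the array's 75th percentile in tail treated and 1.99 in tail control, a log2 difference of -1.09. It read 1.48 in back treated and 0.627 in back control, a difference of 1.24. The back difference minus the tail difference was 2.33 on the log2 scale, between single arrays, and was not tested. The 2 control skins already differed by -1.67 in back control minus tail control.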

How the results depend on the processing

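With 1 array per group, only the scaling, background, probe and filter choices could be varied. No paired analysis was possible because each group has 1 array and no result comes from a test. Alternatives for back treated minus tail treated were chosen after seeing the data. The cause of the shifts below was not tested. In the tail, the members' median of 0.25 was -0.15 under normexp, -0.22 under quantile normalization, -0.15 under cyclic loess and -1.13 under spike-in scaling. The 2 members higher became 0 under each of these 4, and the 0 lower became 2, 2, 3 and 11 in the same order. Quantile normalization, cyclic loess and spike-in scaling also gave values to 17, 12 and 19 members in place of 10. Spike-in scaling turned Ndufa2 to -0.47 and Uqcrb to -0.69. In the back, spike-in scaling gave a median of -0.25 and 2 members lower, and no other alternative moved these results. Between the control skins the median of 0.10 was -0.54 under quantile normalization, -0.33 under cyclic loess and -0.65 under spike-in scaling. The 1 member higher became 0 under these 3 and with the brightest probe whether saturated or not, where Cycs had no value, and the 0 lower became 4, 2 and 3. Between the treated skins the median of -0.37 was 0.17 under normexp, -0.13 under quantile normalization and 0.42 under spike-in scaling, and the 0 members higher became 1 under normexp and 4 under spike-in scaling. The median difference of responses, 0.06, was 0.54 under normexp, 0.41 under cyclic loess and 1.67 under spike-in scaling.

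Over all genes the tail median of 0.31 was 0.59 under normexp, 0.03 under quantile normalization, -0.08 under cyclic loess and -1.67 under spike-in scaling, and the share of calls that were higher, 79.9%, was 90.8%, 58.3%, 53.1% and 1.22%. The back share of 51.1% was 20.4% under spike-in scaling. The control-skin share of 61.6% was 48.3% under quantile normalization, 48.2% under cyclic loess and 22.5% under spike-in scaling, and the treated-skin share of 44% was 21.4% under normexp and 82.2% under spike-in scaling. Saturation limits the tail and control-skin comparisons to 10 members.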
